A study of Mus musculus with 12 samples.

Results

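The variable gene segments of the T cell receptor α chain (Trav) and β chain (Trbv) were followed in RNA of splenic CD4+ T cells. A record was taken when its GENCODE M39 name began with Trav or Trbv and it held 10 or more counts summed over the 12 libraries. Of 165 such records among 55414 gene records, 111 met this rule, 90 Trav and 21 Trbv, 32 had 0 counts and 22 had between 1 and 9 counts. Just below the limit were Trbv21 with 8 counts and Trav15n-2 with 6, and just above it were Trav7d-2 with 12 and Trbv26 with 17. Of the 111 segments, 109 are annotated as functional genes and 2, Trav20 and Trbv24, as pseudogenes.

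A developing T cell in the thymus joins 1 variable segment to a joining segment, with a diversity segment between them in the β chain, and splices the product to a constant gene, Trac for the α chain and Trbc1 or Trbc2 for the β chain. The RAG1 and RAG2 proteins cut at a recombination signal that lies directly behind each variable segment, and the mature cell keeps the joined gene for life. The share of a segment in the RNA of many cells therefore depends on how many cells use it and on how much RNA each of them makes. Invariant natural killer T (NKT) cells are known for a fixed α chain that uses Vα14 (Trav11 or Trav11d), and in mouse strains such as BALB/c endogenous retroviral superantigens are known to remove thymocytes with certain Vβ segments.

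The mice were wild-type male BALB/c mice of 18 weeks. In the LIP group, ligature-induced periodontitis had been produced by silk threads around both upper second molars, and the CTL group had been anesthetized without ligatures. CD4+ T cells of the spleen were purified by negative selection. They were either collected at once (day 0) or stimulated in culture until day 2 through the receptor (antibody to TCRβ) and CD28 in the presence of IL-2, and 3 libraries were sequenced per group and day. The treatment labels name anti-CD29 or anti-CD30 instead of anti-CD28 for 4 of the 6 libraries of day 2.

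The library totals ranged from 6249094 to 12866751 counts. The segments together held 25627 of the counts, 14060 in Trav and 11567 in Trbv. Between 658 and 1418 Trbv counts and between 925 and 1522 Trav counts were available per library, and this depth limits the precision of the shares. Of the marker list for CD4 T cells, Cd4, Cd3e, Cd5 and Trac summed to between 1331 and 2416 CPM (counts scaled to library size, with TMM normalization). Cd4 alone had between 3761 and 5557 counts per library. From day 0 to day 2, Cd5 rose by 1.98 on the log2 scale in CTL cells and 1.76 in LIP cells. Cd4 had −0.14 and −0.25. Over all genes, 2 libraries stood apart from their groups. Leaving out CTL 94 raised the number of genes that differed between LIP and CTL on day 0 from 60 to 658, and leaving out LIP 90 raised it on day 2 from 0 to 2014. The CD8 T cell markers Cd8a and Cd8b1 summed to between 4.43 and 13.2 CPM. The 4 myeloid markers summed to between 4.45 and 11.5 CPM on day 0 and between 0.341 and 1.81 CPM on day 2.

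The segments whose level changed in both groups between day 0 and day 2, described further on, are Trbv31, Trbv1, Trbv13-3, Trav14-1 and Trav11d. The recombination signals behind 4 of them and behind the relatives of Trbv13-3 are given here because the signal is the feature through which each segment is joined. The sequences are from the GRCm39 genome, 5′ to 3′ in the direction of the gene, and the capitals mark the 7-base heptamer and the 9-base nonamer at either end of the 23-base spacer.
Trbv31 (chr6:41534588-41534626, minus strand): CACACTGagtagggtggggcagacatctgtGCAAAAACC
Trbv1 (chr6:40868820-40868858, plus strand): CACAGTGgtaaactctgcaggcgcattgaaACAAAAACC
Trbv13-1 (chr6:41093403-41093441, plus strand): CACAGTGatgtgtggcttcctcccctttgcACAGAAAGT
Trbv13-2 (chr6:41098767-41098805, plus strand): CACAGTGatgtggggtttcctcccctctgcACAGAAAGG
Trbv13-3 (chr6:41107520-41107558, plus strand): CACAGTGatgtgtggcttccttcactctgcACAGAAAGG
Trav14-1 (chr14:53792016-53792054, plus strand): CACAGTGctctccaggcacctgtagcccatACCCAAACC

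The heptamer and the nonamer of Trbv1 both equalled the consensus, CACAGTG and ACAAAAACC, on the strand of the gene. Among the 21 Trbv segments, 7 (33.3%) had the consensus heptamer, against 20.0% of all 35 annotated Trbv records. Among the 90 Trav segments, 79 (87.8%) had it, against 77.7% of all 130 annotated Trav records. The first 3 bases CAC stood directly behind 20 of the 21 Trbv and 88 of the 90 Trav segments. The windows behind Trbv3, Trav7-2 and Trav11d did not start with these bases and are not printed. Around the start of the gene, in a window of 300 bases, TGATGTCA or TGACGTCA occurred on either strand in 7 Trbv segments (33.3%) and 2 Trav segments (2.2%). These letters are those of the cAMP response element, an element known from TCRβ promoters, and they occurred in the same window of 7.05% of 1943 protein-coding genes of chromosomes 6 and 14. Trbv13-1, Trbv13-2 and Trbv13-3 were among the 7 segments, and a match of letters is a description only.

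The Trbv13 segments encode the Vβ8 family and lie between 224.8 and 238.9 kb from Trbv1, and the next sequences show how much of them separates reads of 1 member from reads of another. The last 60 bases of the variable exon are given from GRCm39, plus strand, and the capitals mark the 13 positions at which the 3 members are not all the same.
Trbv13-1 (chr6:41093343-41093402): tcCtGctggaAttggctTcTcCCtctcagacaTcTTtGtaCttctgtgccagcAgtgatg
Trbv13-2 (chr6:41098707-41098766): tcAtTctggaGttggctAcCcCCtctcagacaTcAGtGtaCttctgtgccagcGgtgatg
Trbv13-3 (chr6:41107460-41107519): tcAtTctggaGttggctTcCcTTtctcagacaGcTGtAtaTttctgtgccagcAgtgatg

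Over the whole variable exon, Trbv13-2 and Trbv13-3 were identical at 91.8% of 294 aligned bases, Trbv13-1 and Trbv13-2 at 88.8%, and Trbv13-1 and Trbv13-3 at 86.1%. Trav segments are harder to separate, because the α locus of the reference holds repeated blocks of near-identical copies. The 90 Trav segments fell into 47 groups of copies by name. Of these 90, 26 had a transcript identical to that of another member, and the counts of such partners were equal. The values of a single copy with near-identical partners are uncertain. The reference is built from C57BL/6J mice and the cells came from BALB/c, and what this difference does to the counts was not tested.

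The Trbv repertoire was led by a few segments in all libraries. In bulk RNA, fewer cells of a type and less RNA per cell cannot be told apart, so that a share is one of RNA and not of cells. Averaged over the 12 libraries, Trbv13-1 held 12.8% of the Trbv counts, Trbv31 12.6%, Trbv5 (Vβ1) 12.5% and Trbv19 (Vβ6) 11.5%. Trbv1 (Vβ2) held 9.69%, Trbv2 (Vβ4) 8.74%, Trbv29 (Vβ7) 6.30%, Trbv13-2 5.49%, Trbv4 (Vβ10) 4.85% and Trbv20 (Vβ15) 3.70%. These 10 segments together held 88.2%. Per base of transcript, the order began with Trbv13-1 at 14.1%, Trbv5 at 13.8% and Trbv31 at 12.3%, whereas Trbv19, whose transcript of 566 bases is the longest of the Trbv segments, ranked behind Trbv1.

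The top segments were close to each other relative to their spread. On day 0, the share of Trbv13-1 was 12.8% ± 0.684 in CTL cells and 13.1% ± 1.14 in LIP cells (SD, n = 3), and that of Trbv5 was 13.7% in both groups. These neighbours did not differ beyond the spread between libraries, and on day 2 Trbv31 had the highest mean share, with 16.8% ± 1.59 in CTL cells and 13.6% ± 0.832 in LIP cells (SD, n = 3). In a single library, the share of Trbv31 was lowest in CTL 89 of day 0, at 8.27% (Wilson 95% interval 6.60% to 10.3%), and highest in CTL 93 of day 2, at 18.5% (16.4% to 21.0%). These intervals cover counting error only.

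**Figure D1:**
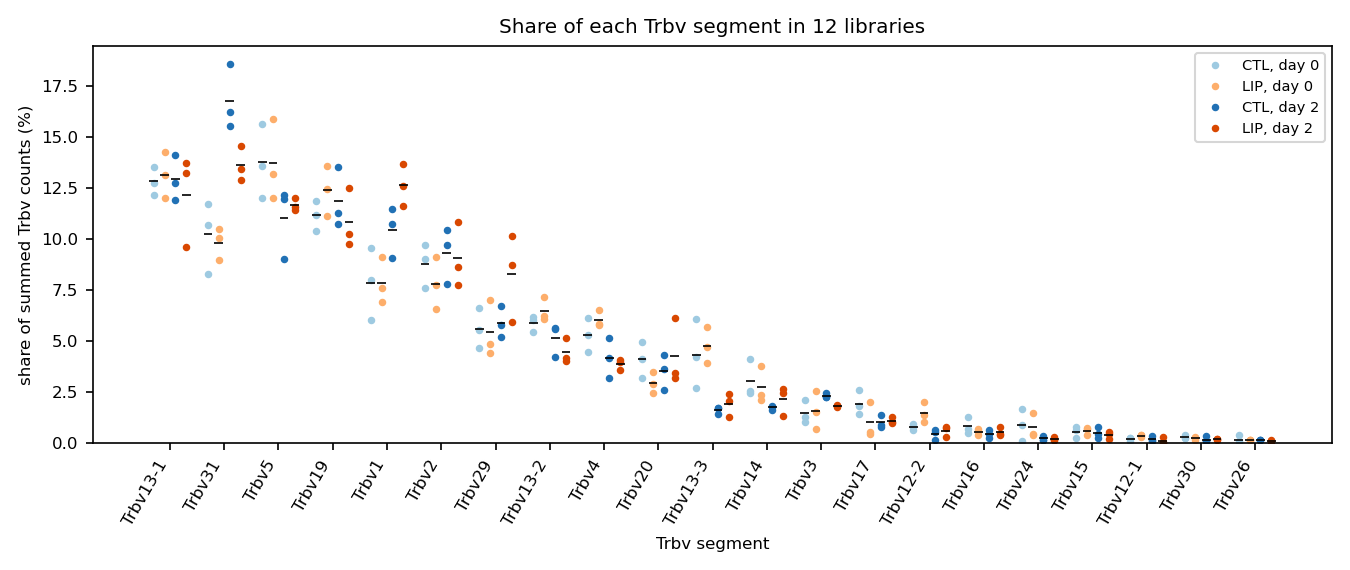
Share of the 21 Trbv segments in the summed Trbv counts (y axis, percent), with 1 point per library, a bar at the mean of the 3 libraries, and colors for group and day. Within each group, every library of day 2 had a higher share of Trbv31 and a lower share of Trbv13-3 than those of day 0, and Trbv1 was apart between the days in LIP cells but overlapped in CTL cells (9.54% in CTL 94 of day 0, 9.09% in CTL 93 of day 2), whereas Trbv13-1 held a mean share between 12.2% and 13.1% in every group.

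The Trav repertoire was spread over more segments. Trav14d-3-dv8 held the highest mean share, 7.02% of the Trav counts, followed by Trav3-3 at 5.28%, Trav7-3 at 4.75%, Trav7-4 at 3.89% and Trav8d-1 at 3.83%. This order differed by group. On day 0 the share of Trav7-3 was 4.90% ± 0.392 in CTL cells, above Trav3-3 at 4.70% ± 0.662, and 3.39% ± 0.684 in LIP cells, below Trav7-4 at 4.21% ± 0.355 and Trav8d-1 at 3.77% ± 0.677 (SD, n = 3). The dv in a name marks a segment that can also be joined to the δ chain. The 10 highest, with Trav7d-4, Trav12-3, Trav9n-4, Trav6-7-dv9 and Trav6n-6, together held 38.0%. Trav14d-3-dv8 was also first per base of transcript, at 6.26%. Longer transcripts tended to have higher shares among the 90 Trav segments (Spearman's rho 0.55) and less so among the 21 Trbv segments (0.25), a description across segments that share the same libraries.

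On day 0, between 8 and 10 Trbv segments were needed to reach 80% of the Trbv counts, and on day 2 the number was 8 in every library. The Shannon entropy of the Trbv shares, which is higher when the shares are more even, was 3.75 ± 0.034 bits on day 0 and 3.57 ± 0.047 bits on day 2 in CTL cells (SD, n = 3). The LIP libraries had 3.73 ± 0.11 bits and 3.60 ± 0.066 bits. The days lay apart in CTL cells and overlapped in LIP cells, where LIP 92 of day 0 stood at 3.66 bits and LIP 96 of day 2 at 3.67 bits. Trav shares gave between 5.68 and 5.85 bits.

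In the median, libraries of the same day resembled each other whether or not they came from the same group. The distance between 2 libraries was taken as 0.5 of the summed absolute difference of their Trbv shares, so that 0 means the same shares. Its median was 10.0% between day 0 libraries of the same group and 9.48% between CTL and LIP of day 0. On day 2 the medians were 8.11% and 9.36%. LIP 96 of day 2 stood apart, at 13.5%, 14.5% and 13.1% from CTL 92, 93 and 97. It lay 12.3% from LIP 90 and 7.53% from LIP 97. The other distances between CTL and LIP of day 2 were between 6.60% and 9.70%. Libraries of the same group but different days lay 14.7% apart, which was beyond the median but not the highest distance within a day, 14.8%.

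The comparison of LIP with CTL asks whether periodontitis went along with a different level of segments, and shares are tested further on. On day 0, 56 segments had enough counts to be tested, 42 Trav and 14 Trbv. By edgeR's quasi-likelihood test, 0 of the 56 passed at an adjusted p under 0.05, where 0.427% of all 14064 genes did. At an unadjusted p under 0.05 the number was 4, all lower in LIP cells, against 13.9% of all genes in either direction and 7.2% lower. DESeq2 also called 0 of 111 segments, where it called 208 of 25644 genes. The median log2 fold change was −0.26 over the 42 Trav and −0.14 over the 14 Trbv segments, against 0.01 over all genes. Trac, the constant gene of the α chain, had −0.31, with an adjusted p of 0.218 by edgeR's quasi-likelihood test. Per 100 Trac counts there were 101 ± 4.90 Trav counts in CTL cells and 104.7 ± 3.25 in LIP cells (SD, n = 3). The part of Trac in the lower Trav values was not tested. Of the Trav segments, 33 had a value below 0 and 9 above, and of the Trbv segments 10 and 4, with copies that share reads among them. The groups did not overlap for 5 segments, all lower in LIP cells, where 19.1% of all genes did not overlap in either direction and 9.85% were lower.

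The 4 segments with the smallest p were Trav7-3, Trav7d-4, Trav6-5 and Trbv20, of which Trav6-5 was named after its values were seen and the others are among the 10 highest of their chain. Trav7-3 stood at 8.29, 9.63 and 6.31 CPM in CTL 88, 89 and 94 and at 3.86, 4.64 and 5.34 CPM in LIP 92, 93 and 94. Every LIP library lay below every CTL library. Its log2 fold change was −0.80 ± 0.23 (SE), with an adjusted p of 0.159. The adjusted p was 0.0299 without CTL 94 and 0.0350 without the filter on low counts, and between 0.154 and 0.484 in the other alternatives. With its near-identical copy Trav7d-3 added, which has 99.3% of the same bases, the log2 fold change was −0.59, with an adjusted p of 0.243. Of the 7 tested NK, γδ T cell and NKT cell markers, 0 passed the same test between LIP and CTL on day 0. The NK markers Ncr1, Klrb1c and Klre1 summed to between 2.05 and 5.92 CPM in CTL cells and between 5.925 and 10.2 CPM in LIP cells, without overlap, and the 5 γδ T cell markers to between 22.03 and 27.4 and between 26.7 and 31.5 CPM, with overlap. Zbtb16, which encodes the transcription factor PLZF of NKT and other innate-like cells, and Trgc2, a constant gene of the γ chain, were higher in every LIP library than in any CTL library, with log2 fold changes of 0.54 (adjusted p = 0.307) and 0.71 (adjusted p = 0.145). The part of these markers in the lower Trav values of LIP cells was not tested.

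Trav7d-4 stood at 4.52, 6.02 and 5.79 CPM in CTL cells and at 2.20, 3.10 and 3.47 CPM in LIP cells, without overlap. Its log2 fold change was −0.89 ± 0.26, with an adjusted p of 0.166. Its copy Trav7-4 has 99.7% of the same bases and had a log2 fold change of −0.01, and the sum of the copies of this group gave −0.37, with an adjusted p of 0.386. Trav6-5 had a log2 fold change of −0.91 ± 0.33 and an adjusted p of 0.257.

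Trbv20 was the Trbv segment with the smallest p on day 0. It stood at 3.77, 5.06 and 4.21 CPM in CTL cells and at 3.44, 2.67 and 2.405 CPM in LIP cells, again without overlap. The log2 fold change was −0.61 ± 0.26, with an adjusted p of 0.332. For the 3 leading Trbv segments, the 95% interval of the log2 fold change ran from −0.42 to 0.22 (Trbv13-1), from −0.60 to 0.20 (Trbv31) and from −0.48 to 0.18 (Trbv5). Changes within these intervals are not excluded.

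On day 2, 55 segments were tested, 41 Trav and 14 Trbv. Again 0 passed edgeR's quasi-likelihood test after adjustment, as did 0% of all 14041 genes, and DESeq2 called 0 of 110 segments, where it called 487 of 25712 genes. Without LIP 90, 0 of 61 segments passed, where 2014 of 14453 genes did. At an unadjusted p under 0.05 the number was 1, against 16.5% of all genes. This was Trav4-3, named after its values were seen, with 1.69, 1.07 and 1.36 CPM in CTL 92, 93 and 97 and 2.51, 3.37 and 1.81 CPM in LIP 90, 96 and 97. The groups did not overlap, and the log2 fold change was 0.89 ± 0.35, with an adjusted p of 0.260. The median log2 fold change was −0.13 over the Trav and 0.03 over the Trbv segments, against −0.01 over all genes. Groups did not overlap for 6 segments, against 21.5% of all genes.

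The largest difference between LIP and CTL of day 2 among the Trbv segments was that of Trbv29, with a log2 fold change of 0.50 (95% interval −0.09 to 1.09). Trbv31 had −0.30 (−0.64 to 0.05), and each LIP library lay below each CTL library. Trbv1 had 0.29 (−0.08 to 0.67), with each LIP library above each CTL library. None of these passed the test after adjustment, with adjusted p-values of 0.372, 0.367 and 0.407.

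**Figure D2:**
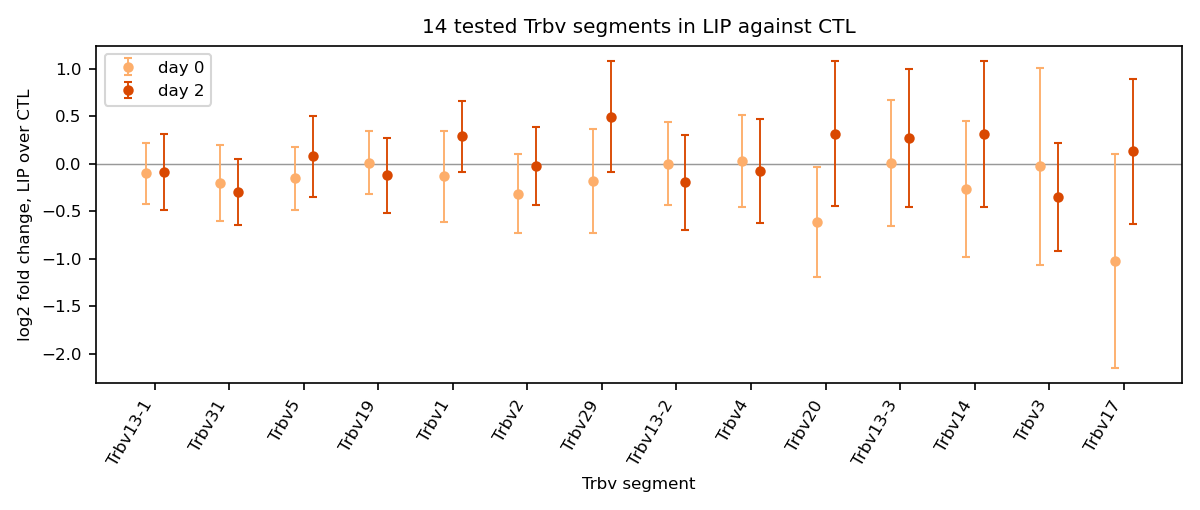
Log2 fold change of LIP over CTL (y axis) with its 95% interval for the 14 tested Trbv segments, on day 0 and day 2. The intervals include 0 except for Trbv20 on day 0, whose value is −0.61 with an adjusted p of 0.332.

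The comparison of day 2 with day 0 asks which segments changed their level with stimulation through the T cell receptor. In CTL cells, 7 of 63 tested segments changed, 2 higher and 5 lower, by edgeR's quasi-likelihood test with a threshold of 0.05 on the adjusted p. Of all 15475 genes, 69% passed, 35.3% higher and 33.7% lower. In LIP cells, 13 of 63 changed, 7 higher and 6 lower, where 71.8% of all genes did, 36.6% higher and 35.2% lower. Days did not overlap for 17 segments in CTL cells and 19 in LIP cells, against 73.3% and 74.8% of all genes. The share of segments that changed was thus 11.1% and 20.6%, below the share over all genes. Few counts stand behind most segments, and how far this lowers the number called was not tested. The median size of the log2 fold change, without its sign, was 0.36 over the Trav and 0.30 over the Trbv segments in CTL cells, against 0.81 over all genes. In LIP cells these medians were 0.32, 0.52 and 0.90. With the sign, the medians were −0.25 over the Trav and 0.13 over the Trbv segments in CTL cells, against −0.02 over all genes, and −0.14 and 0.37 in LIP cells, against −0.00.

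The same 5 segments changed in the same direction in both groups. They were 71.4% of the segments called in CTL cells and 38.5% of those called in LIP cells, where 87.2% and 83.8% of all called genes were called in both. Trbv31 and Trbv1 were higher on day 2, and Trbv13-3, Trav14-1 and Trav11d were lower. The 2 comparisons use different libraries, but every library was in the same fit and shared its estimate of the spread.

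Trbv31 encodes Vβ14 and is the only one of the 21 Trbv segments in the opposite orientation to the others, 666.5 kb from Trbv1. In CTL cells it stood at 12.5, 8.43 and 12.0 CPM on day 0 and at 18.7, 24.4 and 19.6 CPM on day 2. Cells of LIP mice had 8.82, 9.71 and 9.89 CPM on day 0 and 16.8, 17.1 and 17.5 CPM on day 2. All 6 libraries of day 2 lay above all 6 of day 0. The log2 fold change was 0.93 ± 0.16 (SE) in CTL cells, with an adjusted p of 0.000161, and 0.86 ± 0.16 in LIP cells, with an adjusted p of 0.000375. Both calls were kept in all 17 alternative analyses.

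Trbv1 encodes Vβ2 and lies at the far end of the β locus, 156 kb before Trbv2. It stood at 9.34, 6.14 and 9.74 CPM on day 0 and at 12.4, 11.9 and 14.5 CPM on day 2 in CTL cells. Values in LIP cells were 8.96, 7.04 and 6.81 CPM on day 0 and 14.6, 18.2 and 15.2 CPM on day 2. Again all libraries of day 2 lay above those of day 0. The log2 fold change was 0.63 ± 0.19 in CTL cells, with an adjusted p of 0.0101, and 1.07 ± 0.19 in LIP cells, with an adjusted p of 0.000214. Without CTL 89 of day 0, the value in CTL cells was 0.44, with an adjusted p of 0.0518.

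Trbv13-3 was the only Trbv segment that fell. It stood at 4.97, 2.77 and 6.18 CPM on day 0 and at 2.01, 1.91 and 2.16 CPM on day 2 in CTL cells. LIP cells had 3.86, 4.36 and 5.61 CPM on day 0 and 3.05, 2.72 and 1.55 CPM on day 2. The days did not overlap within either group. The log2 fold change was −1.18 ± 0.33 in CTL cells, with an adjusted p of 0.00610, and −0.89 ± 0.32 in LIP cells, with an adjusted p of 0.0233. The call in LIP cells was lost with DESeq2 (adjusted p = 0.0509), without LIP 94 of day 0 (log2 fold change −0.72) and without LIP 97 of day 2 (−0.67, adjusted p = 0.0898). The other members of its family, whose sequences are given above, had log2 fold changes between −0.15 and 0.26 in the 2 groups, and none passed the test. Trbv13-1 had 0.23 in CTL cells and 0.26 in LIP cells, and Trbv13-2 had 0.02 and −0.15.

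Trav11d, 1 of the copies of the Vα14 segment of NKT cells, had few counts. Its last 60 bases of variable exon are given (GRCm39, plus strand, no capitals) because they are the end of the stretch that the segment contributes to the fixed α chain.
Trav11d (chr14:53062310-53062369): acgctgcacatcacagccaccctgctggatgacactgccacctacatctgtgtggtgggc

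Counts of Trav11d were 6, 5 and 12 in CTL 88, 89 and 94 of day 0 and 2, 0 and 1 in CTL 92, 93 and 97 of day 2. In LIP cells they were 16, 8 and 12 in LIP 92, 93 and 94 of day 0 and 3, 2 and 1 in LIP 90, 96 and 97 of day 2. Each library of day 0 had more counts than any of day 2. Summed over libraries, 23 counts of day 0 stood against 3 of day 2 in CTL cells, a ratio scaled to the library totals of 9.06 (exact 95% interval 2.74 to 47.1). In LIP cells, 36 stood against 6, a ratio of 8.12 (3.39 to 23.6). These intervals cover counting error only. edgeR's quasi-likelihood test gave adjusted p-values of 0.00163 and 0.000478. Trav11d passed the filter on low counts through its day 0 libraries, where it is high, and did not pass it among the libraries of day 2 alone. These p-values therefore belong to a segment that the filter kept for its counts on day 0. The other copy, Trav11, had 0 counts in all libraries and has 99.7% of the same bases, so that the counts of Trav11d cannot be assigned to it with certainty.

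Zbtb16 moved in the same direction. It had 114, 73 and 138 counts in CTL cells and 132, 159 and 172 in LIP cells on day 0, and 19, 24 and 44 and then 24, 35 and 22 counts on day 2. Its log2 fold change was −2.15 in CTL cells and −2.94 in LIP cells, with adjusted p-values of 4.82e-05 and 2.5e-06. The NK markers Ncr1, Klrb1c and Klre1 summed to between 2.05 and 10.2 CPM on day 0 and between 0 and 1.22 CPM on day 2. The part of these markers in the result for Trav11d was not tested. Trav1, the segment of mucosal-associated invariant T cells, had between 1 and 15 counts per library and was below the filter. Trav11, Trav11d and Trav1 together held 0.955% ± 0.413 of the Trav counts in CTL cells and 1.44% ± 0.160 in LIP cells on day 0. On day 2 they held between 0.493% and 0.692% in the CTL libraries and between 0.314% and 1.12% in the LIP libraries.

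Trav14-1 stood at 3.92, 5.30 and 3.03 CPM on day 0 and at 1.80, 2.15 and 0.9085 CPM on day 2 in CTL cells. LIP cells had 3.44, 3.24 and 4.01 CPM on day 0 and 1.52, 0.843 and 1.43 CPM on day 2. No library of day 2 reached a library of day 0. The log2 fold change was −1.33 ± 0.35 in CTL cells, with an adjusted p of 0.00360, and −1.49 ± 0.36 in LIP cells, with an adjusted p of 0.00198. Trav14d-1 and Trav14n-1 are identical to each other and have 95.8% of the bases of Trav14-1. Each had a log2 fold change of −0.63 in CTL cells (adjusted p = 0.0603) and −1.03 in LIP cells (adjusted p = 0.00580). Leaving out 1 library gave between −0.79 (without CTL 93, adjusted p = 0.0473) and −0.41 (without CTL 92, adjusted p = 0.228) in CTL cells. With the copies of this group summed, the log2 fold change was −0.85 in CTL cells and −1.20 in LIP cells, with adjusted p-values of 0.00235 and 0.000184.

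**Figure D3:**
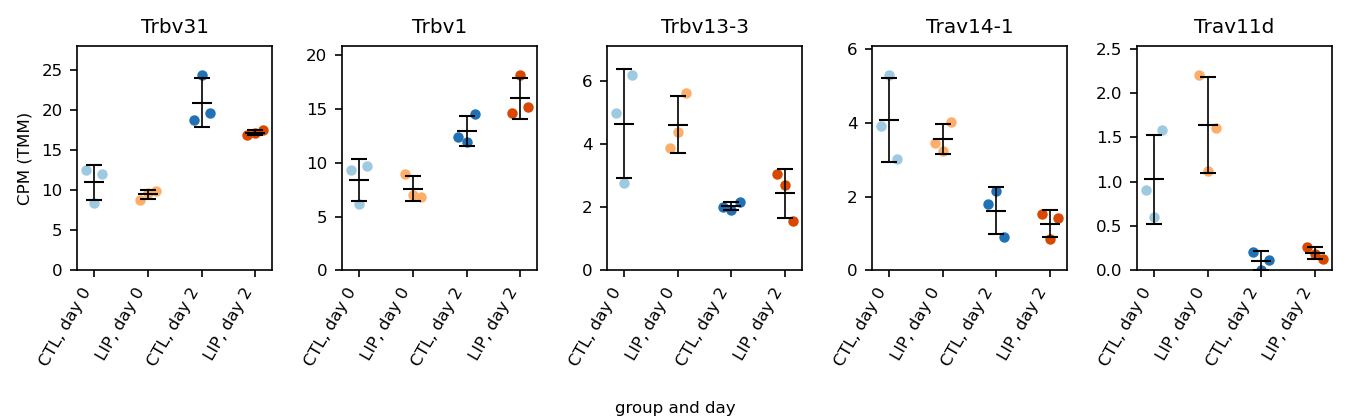
Level in CPM (y axis, from 0, a scale of its own in each panel) of the 5 segments called in both groups, with 1 point per library and the mean ± SD of 3 libraries per group and day. Every library of day 2 lay above those of day 0 for Trbv31 and Trbv1, and below those of day 0 of its own group for Trbv13-3, Trav14-1 and Trav11d.

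The remaining calls were made in only 1 group. In CTL cells, Trav6-5 fell by 1.02 on the log2 scale (adjusted p = 0.0104), and Trav15n-1, with 26 estimated counts on day 0 and 3 on day 2, gave a ratio of 10.2 (exact 95% interval 3.14 to 52.9). The call of Trav6-5 was lost without CTL 89 of day 0, with a log2 fold change of −0.71 and an adjusted p of 0.0734, and relative to the Trav total (−0.74, adjusted p = 0.0530). The adjusted p of Trav15n-1, 0.0290 with all libraries, was between 0.0606 and 0.1004 without CTL 89, CTL 94, CTL 92 or CTL 97. Trav15n-1 passed the filter on low counts through libraries of day 0, where it is high, and did not pass it among the libraries of either day alone. In LIP cells, Trav15d-1-dv6d-1 fell, with 58 estimated counts on day 0 and 23 on day 2 and an adjusted p of 0.00706. LIP 94 of day 0 held 33.4 of the 58, and without it the log2 fold change was −1.11 instead of −1.72, with an adjusted p of 0.0703. Trav15n-1 and Trav15d-1-dv6d-1 belong to 1 group of copies between which RSEM divided reads. With these copies summed, the log2 fold change was −1.22 in CTL cells and −1.61 in LIP cells, with adjusted p-values of 0.00881 and 0.00159. The names of this group include δ segments. The γδ T cell markers Trdc, Trgc1, Trgc2, Trgc4 and Sox13 summed to at most 31.5 CPM on day 0, with no library below 22.03, and between 2.33 and 8.43 CPM on day 2, and their part in the result was not tested.

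Among the segments that rose in LIP cells, Trbv29, which encodes Vβ7, stood at 6.89, 4.08 and 4.81 CPM on day 0 and at 7.43, 13.5 and 10.5 CPM on day 2. The days did not overlap, and the log2 fold change was 0.99 ± 0.26, with an adjusted p of 0.00396. In CTL cells it was 0.30 ± 0.26, with an adjusted p of 0.332, and between 0.15 and 0.40 when 1 library was left out. Trbv20 stood at 3.44, 2.67 and 2.405 CPM on day 0 and at 4.03, 8.15 and 4.15 CPM on day 2 in LIP cells. LIP 96 was the highest, and without it the log2 fold change was 0.53 instead of 0.94, with an adjusted p of 0.112 instead of 0.0151. Without LIP 94 of day 0 the adjusted p was 0.0564. Relative to the Trbv total, described further on, it was 0.54, with an adjusted p of 0.134. Trbv2 rose by 0.61 ± 0.18 in LIP cells, with an adjusted p of 0.00863, and relative to the Trbv total its value was 0.22, with an adjusted p of 0.340.

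Trav6-4 and Trav7-3 were the only Trav segments that rose in LIP cells, with log2 fold changes of 0.62 ± 0.25 and 0.56 ± 0.23 and adjusted p-values of 0.0395 and 0.0414. In CTL cells Trav6-4 had 0.55 ± 0.24, with an adjusted p of 0.0573. The call of Trav6-4 was lost in 8 and that of Trav7-3 in 6 of 16 alternative analyses, among them DESeq2 and the one without the filter on low counts. The call of Trav6-4 was lost without any 1 of the 6 LIP libraries, with adjusted p-values between 0.0512 and 0.127, and that of Trav7-3 without LIP 92, 93, 96 or 97, with values between 0.0801 and 0.138. With its near-identical copy added, the log2 fold change of Trav7-3 was 0.37, with an adjusted p of 0.126. Without LIP 90, 15 of 67 segments, against 10963 of 15823 genes, passed in LIP cells, 9 higher and 6 lower, among them Trbv31, Trbv1, Trbv13-3, Trav14-1 and Trav11d.

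**Figure D4:**
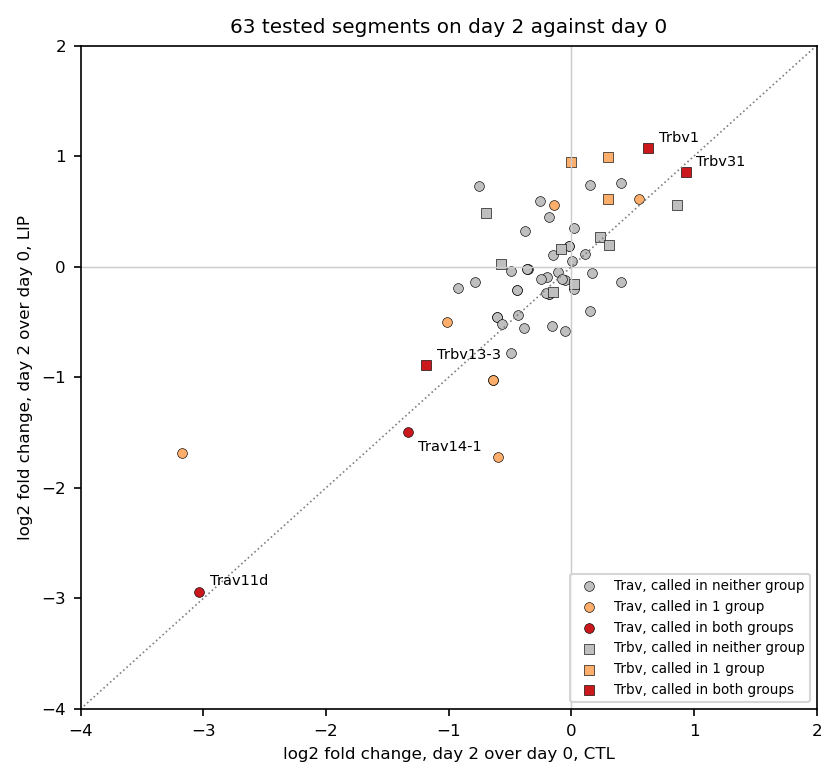
Log2 fold change of day 2 over day 0 in CTL cells (x axis) and in LIP cells (y axis) for the 63 tested segments, colored by the number of groups in which the adjusted p was under 0.05, with a dotted line at equal values. The 5 named segments passed in both groups, and 46 of the 63 had the same sign in both, as did 13934 of all 15475 genes.

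The difference between these day effects was tested as the interaction of group and day. Of the 63 segments, 0 passed by edgeR's quasi-likelihood test, where 0.0517% of all genes did. DESeq2 called 0 of 111 segments as well, where it called 525 of 28221 genes. Without LIP 90, 0 of 67 segments passed, where 1596 of 15823 genes did. At an unadjusted p under 0.05 the number was 3, against 15.9% of all genes. These were Trav4-3, Trav7-3 and Trbv20, with values of 1.48, 0.70 and 0.95 and adjusted p-values of 0.190, 0.296 and 0.309. Without LIP 96 the value of Trbv20 was 0.53, with an adjusted p of 0.602. A segment called in LIP cells and not in CTL cells is therefore not shown to differ between them. For Trbv29 the interaction was 0.69 (95% interval −0.11 to 1.49).

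The summed level of all Trbv segments was 107.05 ± 8.81 CPM in CTL cells and 96.5 ± 3.42 in LIP cells on day 0, and 124.5 ± 8.14 and 126.3 ± 6.21 on day 2 (SD, n = 3). The days lay apart in LIP cells, and in CTL cells CTL 88 of day 0, at 117 CPM, lay above CTL 92 of day 2, at 116 CPM. The summed Trav level was 163 ± 22.8 and 136 ± 8.44 CPM on day 0 and 135 ± 9.19 and 128 ± 12.8 CPM on day 2. The Trav level of CTL 94, 138 CPM, was below those of CTL 88 and 89, 171 and 182 CPM, and within the LIP range of 130.01 to 146 CPM, and the difference between LIP and CTL of day 0, −27.3 CPM, ranged from −40.1 without CTL 94 to −18.2 without CTL 89. A sum over segments is described only, with no test.

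Changes in share were tested with the Trbv or Trav total as library size, which asks for a change relative to the other segments of the chain. On this scale the median over all genes moved by up to 0.388 (log2), and only values between segments of a chain are meaningful. Between LIP and CTL, 0 of 56 segments passed on day 0 and 0 of 55 on day 2. Of all genes, 94 of 14064 and 7 of 14041 passed. The values that follow are for day 2 against day 0. Trbv31 rose in share by 0.71 on the log2 scale in CTL cells and 0.47 in LIP cells, with adjusted p-values of 0.00116 and 0.0195. Trbv13-3 fell by 1.40 and 1.28, with adjusted p-values of 0.00153 and 0.00216. Trav11d fell by 2.798 and 2.85 (adjusted p = 0.00466 and 0.000967) and Trav14-1 by 1.05 and 1.39 (adjusted p = 0.0164 and 0.00335). On this scale 68.3% of all genes in CTL cells and 72.1% in LIP cells passed with the Trbv total, and 63% and 66.3% with the Trav total. The share of Trbv1 rose by 0.68 in LIP cells (adjusted p = 0.00527), and its value in CTL cells was 0.41, with an adjusted p of 0.0706. In LIP cells, Trbv4 fell in share by 0.62 and Trbv13-2 by 0.54, with adjusted p-values of 0.0234 and 0.0291, whereas Trav6n-6 rose by 0.84 and Trav6d-4 by 0.81, with adjusted p-values of 0.0246 and 0.0499. None of these 4 passed by its level. Trav6-4 rose in share in both groups, by 0.83 in CTL cells (adjusted p = 0.0117), where it did not pass by its level, and by 0.71 in LIP cells (adjusted p = 0.0309).

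The Vβ8 family, Trbv13-1, Trbv13-2 and Trbv13-3 together, held 23.1% ± 2.73 of the Trbv counts in CTL cells and 24.4% ± 1.28 in LIP cells on day 0. On day 2 it held 19.7% ± 1.70 and 18.5% ± 2.81 (SD, n = 3). The libraries of the LIP group did not overlap between the days (22.9% to 25.3% and 15.6% to 21.3%), and those of the CTL group did (20.3% to 25.8% and 17.8% to 21.2%). The segments of the list known to react with superantigens in BALB/c were rare. Trbv26 (Vβ3) had 17 counts in 12 libraries, Trbv12-1 and Trbv12-2 (Vβ5) 25 and 88, Trbv16 (Vβ11) 68 and Trbv15 (Vβ12) 58. Together they held 2.56% ± 0.611 in CTL cells and 3.20% ± 0.630 in LIP cells on day 0, and 1.82% ± 0.258 and 1.78% ± 0.736 on day 2. None of the 5 passed the filter, and their summed share overlapped between CTL and LIP on both days. The share of Trbv12-2 did not overlap on day 0, with 0.772%, 0.946% and 0.644% in CTL cells and 1.40%, 1.06% and 2.03% in LIP cells, from between 5 and 15 counts per library. Trbv26 and Trbv12-1 were near the limit of detection, with between 0 and 4 counts per library.

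The constant genes and the signaling subunits give the rest of the receptor. On day 2 against day 0, 4 of the 12 tested genes of a list of 15 rose and 4 fell in CTL cells, and 6 rose and 4 fell in LIP cells, where 69% and 71.8% of all genes passed in either direction. Trbc1 rose by 0.41 and 0.63 on the log2 scale in the CTL and LIP groups, Trbc2 by 0.45 and 0.77, and Cd3d, a subunit of the CD3 complex, by 0.91 and 1.26. Trac had 0.03 (adjusted p = 0.832) in CTL cells and rose by 0.32 in LIP cells. The genes that fell in both groups were those of the γδ receptor, Trdc, Trgc1, Trgc2 and Trgc4, with values between −5.36 and −1.16. Between LIP and CTL, 0 of the 12 genes tested on day 0 and 0 of the 9 tested on day 2 passed. The recombination genes were at or near 0, with 1 count of Rag1, 0 of Rag2 and at most 2 of Ptcra in any library, and Dntt had between 2 and 20 counts.

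The number of variable-segment counts per 100 counts of the constant genes of the same chain does not depend on library size. For Trav and Trac it was 106.6, 97.4 and 99.1 in CTL cells and 102.6, 108.4 and 103 in LIP cells on day 0. On day 2 it was 78.8, 83.9 and 83.0 in CTL cells and 75.4, 83.1 and 76.6 in LIP cells. All 6 libraries of day 2 lay below all 6 of day 0, and CTL and LIP overlapped on both days. For Trbv and the sum of Trbc1 and Trbc2 the values were between 18.1 and 21.8 on day 0 and between 14.2 and 18.3 on day 2, so that the days overlapped. No test was made on these ratios over members.

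**Figure D5:**
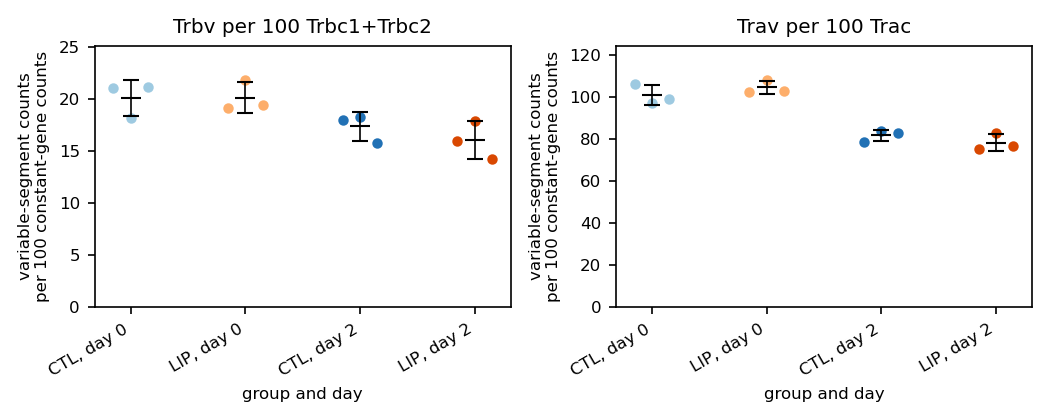
Counts of variable segments per 100 counts of constant genes (y axis, from 0) for Trbv over Trbc1 and Trbc2 (left) and Trav over Trac (right), with 1 point per library and the mean ± SD of 3 libraries. The Trav values of day 2 lie between 75.4 and 83.9, and those of day 0 between 97.4 and 108.4.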

How the data were processed

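Total RNA of CD4+ T cells, purified from spleen by negative selection, was sequenced from directional libraries depleted of ribosomal RNA as paired-end reads. The authors mapped the reads to GRCm39 with HISAT2 and deposited expected counts per gene, which RSEM 1.3.0 with Bowtie2 had estimated without normalization, and which can be fractional where reads fit several copies. The strand setting and the annotation release of the counting are not given in the sources used here. For trimming, the processing notes of the submitters name Trimmomatic 0.38 and the methods of the study another version. The deposited tables of CPM, fold changes and p-values for each day were not used, which leaves out 12 columns of per-sample values, and they were read for gene symbols only. They named none of the 165 segments, and names, positions and transcripts came from GENCODE M39.

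Libraries were grouped by their titles. Counts were rounded, as 73267 values were not whole. Low-count genes were removed with filterByExpr, libraries were scaled by TMM, and the quasi-likelihood test of edgeR 4.0.16 (R 4.3.3) was run, with Benjamini-Hochberg adjustment over all genes tested. LIP and CTL were compared within each day, and day effects and the interaction were taken from a fit of all 12 libraries. A changed level means an adjusted p under 0.05. The labels do not say whether libraries came from separate animals, and p-values measure only the spread between these libraries. Shares are percentages of the summed Trav or Trbv counts of a library. A gene with 0 counts in a library could have a level of up to 3 counts, which is 0.233 to 0.48 CPM in these libraries. For 3 against 3 libraries the smallest two-sided exact permutation p is 0.1, so no such test is reported.

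The segments named were the 10 highest of each chain, those of NKT and mucosal-associated invariant T cells with their partners, those known to react with superantigens, and those called in a comparison of LIP with CTL or in both day comparisons, 5 at most in each direction. Others are named as called in 1 group, with their values. The members and lists were chosen with earlier results of these data known. The test was checked on simulated data with known changes, and the outcome is not reported here. Alternatives were RLE normalization, DESeq2 1.42.0, no filter, the chain total as library size, summed copies, 1 fit of all libraries, and leaving out each library. Leaving out libraries for the entropy was added after seeing the data. Some marker lists are not reported here. Python 3.11.15 with Biopython 1.88 and matplotlib 3.10.9 read the sequences and drew the figures.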

Additional observations from a re-analysis of the deposited data

Results flagged for a closer look

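Trav4-4-dv10, which was below the filter on low counts, moved in opposite directions between LIP and CTL on the 2 days. On day 0 all 3 LIP libraries lay below all 3 CTL libraries, with a difference in mean of −0.53 CPM, and on day 2 all 3 LIP libraries lay above all 3 CTL libraries, with a difference of 0.394 CPM. The means were 1.17 ± 0.285 CPM (CTL) and 0.641 ± 0.161 CPM (LIP) on day 0, then 0.654 ± 0.392 CPM and 1.05 ± 0.0699 CPM on day 2 (SD, n = 3). The difference between the days was not tested for this record with the filter. With the near-identical copies of its group summed, the interaction of group and day was 1.38 on the log2 scale, with an adjusted p of 0.181 by edgeR's quasi-likelihood test. Day 2 against day 0 gave 0.92 for this sum in LIP cells (adjusted p = 0.0292) and −0.46 in CTL cells (adjusted p = 0.239). Between 2.07 and 12.2 estimated counts per library stand behind these values. The record was flagged because its groups lay apart in opposite directions on the 2 days. Its sum holds the same counts, so the p-values of the sum are not independent of that choice. How many of all genes show this pattern was not counted.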

How the results depend on the processing

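The number of segments called was within 1.5 times the main number, or 0 in both, in all alternatives except for LIP against CTL on day 0, where 1 segment (Trav7-3) instead of 0 passed without the filter on low counts and without CTL 94, where 645 of 25644 and 658 of 14343 genes passed instead of 60 of 14064. Leaving out 1 library gave between 5 and 10 calls for day 2 against day 0 in the CTL group (7 with all libraries; 5 without CTL 89 and 10 without CTL 93), between 11 and 16 in the LIP group (13), between 0 and 1 for LIP against CTL on day 0, and 0 for day 2 and for the interaction. In these analyses between 63.2% and 71.2% of all genes passed for the CTL group, between 64.6% and 71% for the LIP group, between 0.0904% and 4.59% on day 0, between 0% and 13.9% on day 2 and between 0.00626% and 10.1% for the interaction. Trbv31 and Trav11d kept their calls in both groups in all 17 alternatives and Trav14-1 in all 16. DESeq2 called 6 of 111 segments in CTL cells and 10 in LIP cells, where it called 10657 and 11015 of 28221 genes. With copies summed, 10 of 51 passed in CTL cells, 2 higher and 8 lower, where 10679 of 15463 genes did. Among them were the sums of Trav10 (−0.68), Trav16 (−0.65) and Trav5-4 (−1.01), of which no single copy was called. Their adjusted p-values by edgeR's quasi-likelihood test were 0.0435, 0.0166 and 0.0196. None of these sums passed in LIP cells. The calls in LIP cells count the identical Trav14d-1 and Trav14n-1 separately. The values that changed sign were close to 0 and not called. Trbv20 in the CTL group, −0.00 in the main analysis, was 0.0034 with DESeq2, 0.034 without the filter on low counts and between −0.11 and 0.16 when 1 library was left out. Trav7-3 in the CTL group, −0.14, was 0.13 with the Trav total as library size and between −0.27 and 0.00901 when 1 library was left out. The cause was not tested. Differences of summed levels, list shares and entropies moved by less than the pooled SD between replicates in every alternative. Some of these SDs are as large as the values, and leaving out 1 library gave wide ranges, from −2.69 to 5.24 CPM for the summed Trbv level of LIP against CTL on day 2, from −13.1 to −5.45 CPM on day 0, from −0.42 to 0.314 percentage points for the superantigen list on day 2, and from −0.167 to −0.0672 bits for the entropy of day 2 against day 0 in LIP cells. No paired analysis was made, because the CTL and LIP groups of a day share 1 replicate number and the days of a group share none. LIP of day 0 and CTL of day 2 share 2 numbers but were not compared with each other. With fewer than 20 counts over a group, as for Trav11d on day 2, depth limits the size of a change that can be given.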
